A study of Arabidopsis thaliana with 9 samples.

Results

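The 10 genes described here act in the synthesis and breakdown of starch in Arabidopsis thaliana. They were chosen by gene identifier, with earlier results of these data known, as were the other gene lists. Counts of these lists beside the share of all tested genes are therefore descriptions. The 10 are GBSS1 (AT1G32900), SS1 (AT5G24300), SEX1 (AT1G10760), SEX4 (AT3G52180), BAM3 (AT4G17090), ISA3 (AT4G09020), DPE1 (AT5G64860), PHS1 (AT3G29320), DPE2 (AT2G40840) and PHS2 (AT3G46970). All 10 were found among the 37898 genes of the deposited table, and all 10 were among the 18212 genes that reached 1 FPKM in 3 or more libraries and were tested. FPKM is the number of sequenced fragments scaled to transcript length and to library size, so levels can be compared between genes.

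Polyadenylated RNA was sequenced from seedlings aged 2 weeks and labelled Mock for treatment. The day had 16 h of light (22 °C) and the night 8 h (18 °C). The 3 genotypes, each with n = 3 libraries, were the wild type Col-0 and mutants labelled nrpd1-3 and nrpe1-11, both of ecotype Col-0. NRPD1 and NRPE1 encode the largest subunits of RNA polymerases IV and V, which act in RNA-directed DNA methylation. The labels give 1 allele per gene, with no complemented line, no hour of collection, and no statement that libraries came from separate plants or pools, so p-values here measure only the spread between libraries.

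Leaf starch is built in chloroplasts by day and degraded at night. Starch synthases lengthen glucan chains from ADP-glucose, and GBSS1 makes the amylose fraction inside the granule. For breakdown, glucan, water dikinases phosphorylate the granule surface, phosphatases remove these phosphates again, beta-amylases and debranching enzymes release maltose and short glucans, and maltose is exported and metabolised in the cytosol. In Arabidopsis leaves RNA levels of many of these enzymes follow the circadian clock.

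Depth, read from the spacing between low FPKM values, was 1.01 to 1.25 gigabases of aligned sequence per library, and 16802 to 17604 genes per library reached 1 FPKM. NRPE1 RNA was at 0.831, 0.843 and 0.863 FPKM in Col-0 and at 0.624, 0.254 and 0.339 in nrpe1-11, without overlap but not called in limma (adjusted p = 0.196). Against nrpd1-3, where NRPE1 was at 1.40, 1.28 and 1.19 FPKM, it was called lower (limma adjusted p = 0.0365). NRPD1 RNA was at 0.565, 0.489 and 1.05 FPKM in Col-0 and at 0.674, 0.670 and 0.947 in the libraries labelled nrpd1-3, so RNA level did not distinguish that mutant from Col-0. In nrpe1-11 NRPD1 was at 1.56, 1.98 and 2.30 FPKM, called higher than in Col-0 (limma adjusted p = 0.0190) and than in nrpd1-3 (0.0361). Protein-coding genes took 67.0% of the summed FPKM in Col-0 replicate 2, the lowest share, and up to 80.9% elsewhere. Col-0 replicate 2 was also the lowest Col-0 library for 9 of the 10 starch genes, SS1 being the exception, so results whose call or sign turned on it are given without it. The median tested gene was 0.17 higher in nrpe1-11 than in Col-0 on the log2 scale, and median-ratio rescaling, which equalises the typical gene, brought this to 0.02, while leaving out Col-0 replicate 2 gave 0.11. Of the genes called in that comparison 65.3% were higher as deposited, 53.3% without Col-0 replicate 2, 46.7% after quantile normalization and 35.3% after median-ratio rescaling.

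In wild-type seedlings the mean levels of the 10 genes ran from 4.37 to 43.9 FPKM. PHS1 was highest at 43.9 ± 6.11 FPKM (mean ± SD, n = 3), followed by SEX1 at 33.5 ± 2.98. BAM3 at 25.7 ± 3.23 and PHS2 at 23.1 ± 0.747 overlapped between libraries. DPE2, SS1, SEX4 and DPE1 followed at means of 18.5, 15.7, 14.5 and 13.1 FPKM, each overlapping the next in this order. ISA3 at 8.33 ± 0.747 FPKM and GBSS1 at 4.37 ± 0.754 FPKM were the lowest and overlapped neither each other nor DPE1. At the estimated depth GBSS1 was covered 2.14 to 6.53 times over its length and SEX1 30.5 to 49.1 times, so GBSS1 was the least precisely measured. The libraries labelled nrpd1-3 kept the same order except for DPE1 at rank 6 and SS1 at rank 8, which both overlapped SEX4 between them. In nrpe1-11 DPE1 stood at rank 5, against rank 8 in Col-0, and SS1 at rank 9, against rank 6. There DPE1 overlapped BAM3, next above it, and SS1 overlapped ISA3, next above it. DPE2 moved from rank 5 to 7, SEX4 from 7 to 6 and ISA3 from 9 to 8, and BAM3 and PHS2, which overlapped, changed places.

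**Figure D1:**
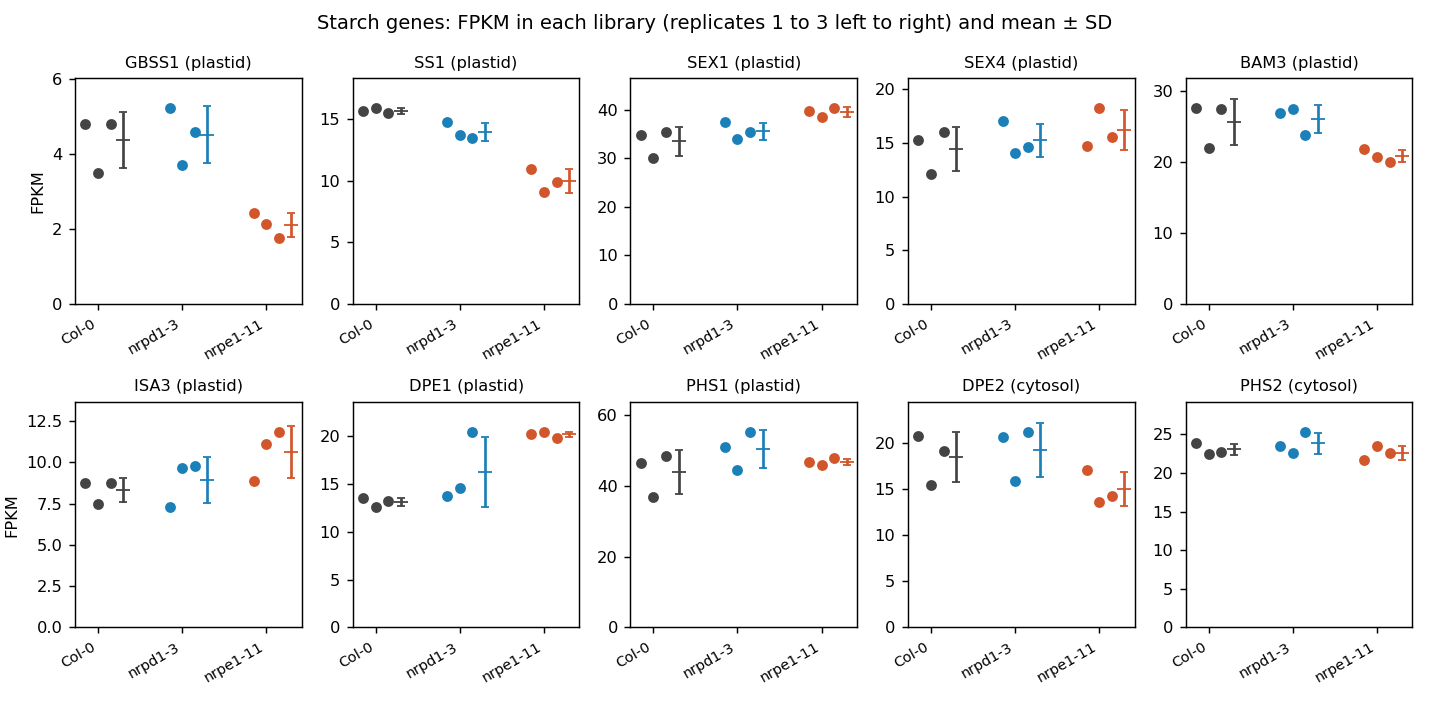
FPKM (vertical axes, each starting at 0) of the 10 starch genes in the 9 libraries, grouped by genotype, with the mean ± SD of n = 3 beside the points. GBSS1 and SS1 are lower in all 3 nrpe1-11 libraries than in the other 6, and DPE1 in nrpe1-11 lies at 19.9 to 20.4 FPKM against 12.7 to 13.5 in Col-0.

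Both synthases were lower in nrpe1-11 than in wild type, the plastid enzyme DPE1 was higher, and the other 7 genes were not called. A gene was called when its difference of mean log2(FPKM + 1) had an adjusted p under 0.05 in limma's moderated test, with Benjamini-Hochberg adjustment over all 18212 genes. On this scale changes of low genes are understated. Of the 10 starch genes 3 were called, 1 higher and 2 lower, where 21.7% of all tested genes were called, 14.2% as higher and 7.54% as lower. The median difference of the 10 genes was 0.03, against 0.17 over all tested genes. The groups did not overlap for 6 of the 10 genes, 3 in each direction, beside 39.4% of all tested genes (28.7% higher and 10.7% lower).

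GBSS1, the granule-bound synthase that makes amylose, is a gene of 13 exons on chromosome 1 (TAIR10.1, chr1:11920390-11923866, minus strand). In replicates 1 to 3 of Col-0 it was at 4.80, 3.50 and 4.81 FPKM, and in those labelled nrpd1-3 at 5.23, 3.71 and 4.59. In nrpe1-11 it was 2.41, 2.12 and 1.77 FPKM. The 3 nrpe1-11 libraries were thus below the other 6, and the mean FPKM fell by 51.9% from wild type (SD 0.754 in Col-0 and 0.322 in nrpe1-11). The difference was -0.79 ± 0.183 on the log2(FPKM + 1) scale (SE, limma adjusted p = 0.00691), and -0.96 relative to the median gene. The call held in all 16 alternatives in which GBSS1 was tested.

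SS1, the soluble synthase that extends short amylopectin chains, has 15 exons on chromosome 5 (chr5:8266566-8271205, plus strand). It measured 15.6, 15.9 and 15.5 FPKM in Col-0, the narrowest spread of the 10 genes in that genotype. The libraries labelled nrpd1-3 had 14.8, 13.7 and 13.4 FPKM, and nrpe1-11 had 11.0, 9.09 and 9.87. The 3 genotypes did not overlap, with nrpd1-3 between the other two. In nrpe1-11 the difference from Col-0 was -0.61 ± 0.116 (limma adjusted p = 0.00182), or -0.78 relative to the median gene, and the call held in all 17 alternatives.

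DPE1, which rearranges short glucans such as maltotriose in the plastid and frees glucose, has 16 exons on chromosome 5 (chr5:25925173-25928879, minus strand). Its Col-0 libraries were at 13.5, 12.7 and 13.3 FPKM, and its nrpe1-11 libraries at 20.3, 20.4 and 19.9. The groups lay far apart and each was narrow. The difference was 0.58 ± 0.136 (limma adjusted p = 0.00694), or 0.41 relative to the median gene, and was called in all 17 alternatives. The libraries labelled nrpd1-3 were at 13.8, 14.6 and 20.5 FPKM, so the first pair lay just above Col-0 and replicate 3 at the level of nrpe1-11.

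The stretches of 250 bases before the annotated starts of the 3 called genes and of PHS1 are shown because the G-box, a motif bound by basic helix-loop-helix and basic leucine zipper factors, recurs in SS1, DPE1 and PHS1. The G-box, CACGTG, which reads alike on both strands, is in capitals, and sequences run 5′ to 3′ on the gene's own strand, from the RefSeq TAIR10.1 genome at chr1:11923867-11924116 (GBSS1, minus), chr5:8266316-8266565 (SS1, plus), chr5:25928880-25929129 (DPE1, minus) and chr3:11252557-11252806 (PHS1, plus).
GBSS1: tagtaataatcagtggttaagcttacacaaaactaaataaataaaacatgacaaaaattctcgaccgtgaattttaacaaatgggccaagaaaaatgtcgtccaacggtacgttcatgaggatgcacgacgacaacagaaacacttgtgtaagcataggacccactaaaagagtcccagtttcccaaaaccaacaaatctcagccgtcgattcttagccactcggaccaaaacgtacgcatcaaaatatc
SS1: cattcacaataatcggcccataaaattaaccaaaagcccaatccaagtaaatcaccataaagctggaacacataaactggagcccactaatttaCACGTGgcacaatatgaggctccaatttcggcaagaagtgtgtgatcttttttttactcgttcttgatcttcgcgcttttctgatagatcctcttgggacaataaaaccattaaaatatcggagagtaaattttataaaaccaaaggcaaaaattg
DPE1: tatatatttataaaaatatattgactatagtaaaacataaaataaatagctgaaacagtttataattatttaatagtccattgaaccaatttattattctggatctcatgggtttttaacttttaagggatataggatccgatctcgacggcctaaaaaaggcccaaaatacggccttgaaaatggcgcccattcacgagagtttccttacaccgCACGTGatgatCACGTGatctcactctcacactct
PHS1: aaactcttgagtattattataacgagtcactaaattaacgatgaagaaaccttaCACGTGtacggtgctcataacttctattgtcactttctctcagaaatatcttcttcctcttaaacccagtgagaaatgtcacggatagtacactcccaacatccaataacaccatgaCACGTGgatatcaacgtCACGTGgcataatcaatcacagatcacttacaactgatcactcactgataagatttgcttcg

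SS1, DPE1, PHS1 and PHS2 held a G-box in this window, 4 of the 10 genes, where 6.49% of the 27443 promoters of that length did. SS1 and PHS2 had 1 copy, DPE1 had 2, at 35 to 30 and 24 to 19 bases before the start, and PHS1 had 3. GBSS1 held none, while PHS1 and PHS2, which hold it, were not called. The evening element AAAATATCT, a motif of clock-controlled genes, was searched on both strands and occurred in ISA3 alone among the 10 and in 2.36% of all promoters. AAAAATCT, bound by the clock factor CCA1, occurred in DPE2 (6.69% of promoters), and AACAATCT in none of the 10 (1.83%). In a window extended 50 bases past the start, chosen after the first search, the evening element also appeared in SEX1, across the start, and in DPE1, from transcript base 13, against 2.82% of such windows. The windows of SEX4 and DPE2 overlap a neighbouring annotated gene. That of PHS2, with its G-box, lies wholly inside the annotated gene AT3G46980. A match describes letters only.

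Of the 10 genes, the pair that act on phosphate at the granule surface, SEX1 and SEX4, did not pass the test. SEX1, the dikinase that starts phosphorylation (34 exons, chr1:3580830-3590928), was at 34.9, 30.1 and 35.5 FPKM in Col-0 and at 39.7, 38.6 and 40.5 in nrpe1-11. These groups did not overlap, but the difference of 0.24 ± 0.0975 had a limma adjusted p of 0.0952, and it lay only 0.06 above the median gene. In the libraries labelled nrpd1-3 SEX1 was at 37.5, 34.0 and 35.5 FPKM, overlapping Col-0.

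SEX4, the phosphatase that removes glucan phosphate (chr3:19349600-19353728), measured 15.2, 12.1 and 16.0 FPKM in Col-0, 17.0, 14.1 and 14.6 in nrpd1-3 and 14.7, 18.3 and 15.6 in nrpe1-11. All 3 genotypes overlapped. Its difference in nrpe1-11 was 0.16 (95% interval -0.13 to 0.44, limma adjusted p = 0.429) and was -0.020 under median-ratio rescaling and 0.042 without Col-0 replicate 2.

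BAM3, a main beta-amylase of leaf chloroplasts at night (4 exons, chr4:9604962-9607402), was at 27.6, 21.9 and 27.4 FPKM in Col-0 and at 21.8, 20.7 and 20.0 in nrpe1-11. The nrpe1-11 libraries were below every Col-0 library, by a small margin to Col-0 replicate 2. The difference was -0.28 ± 0.115 (limma adjusted p = 0.0918). It was called at -0.46 under median-ratio rescaling (adjusted p = 0.00437), -0.41 under quantile normalization (0.00999), -0.33 with libraries scaled to the protein-coding sum (0.0296) and -0.39 without Col-0 replicate 2 (0.0203). The libraries labelled nrpd1-3, at 26.9, 27.5 and 23.8 FPKM, overlapped Col-0. BAM3 shares 518 bases with a non-coding RNA on the opposite strand, AT4G06665, whose level was 0 in every Col-0 and nrpe1-11 library.

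ISA3, which removes branch points during breakdown (24 exons, chr4:5783909-5789100), was at 8.77, 7.47 and 8.75 FPKM in Col-0, 7.30, 9.65 and 9.80 in nrpd1-3 and 8.87, 11.1 and 11.9 in nrpe1-11. The lowest nrpe1-11 library was just above the highest of Col-0. The difference was 0.31 ± 0.152 (limma adjusted p = 0.159).

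PHS1, the plastid phosphorylase that releases glucose 1-phosphate (chr3:11252807-11257814), was at 46.4, 36.9 and 48.4 FPKM in Col-0, 51.0, 44.6 and 55.3 in nrpd1-3 and 46.6, 45.9 and 47.7 in nrpe1-11. The nrpe1-11 libraries lay inside the Col-0 range. The difference of 0.10 (95% interval -0.14 to 0.34, limma adjusted p = 0.558) changed sign to -0.09 under median-ratio rescaling, -0.05 under quantile normalization and -0.02 without Col-0 replicate 2. PHS1 shares 131 bases with AT3G29330 on the opposite strand, which was at no more than 4.16 FPKM in any library.

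The cytosolic enzymes were not called. DPE2, which takes glucose from exported maltose (chr2:17044932-17051062), was at 20.8, 15.5 and 19.1 FPKM in Col-0, 20.7, 15.9 and 21.3 in nrpd1-3 and 17.1, 13.6 and 14.3 in nrpe1-11. The ranges overlapped through Col-0 replicate 2. The difference was -0.28 ± 0.144 (limma adjusted p = 0.179), and it was called at -0.46 under median-ratio rescaling (adjusted p = 0.00932) and -0.42 under quantile normalization (0.0199).

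PHS2, the cytosolic phosphorylase (chr3:17301394-17306633), was at 23.9, 22.5 and 22.8 FPKM in Col-0, 23.5, 22.6 and 25.4 in nrpd1-3 and 21.7, 23.4 and 22.6 in nrpe1-11. The 3 genotypes overlapped, with a difference of -0.03 in nrpe1-11 (95% interval -0.24 to 0.18, limma adjusted p = 0.862). It shares 35 bases on the same strand with AT3G46980, a gene at 4.92 to 6.42 FPKM in Col-0, so some of its reads may belong to that neighbour.

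With BAM3 and DPE2 the count of called starch genes was 5 of 10, 1 higher and 4 lower, under median-ratio rescaling and under quantile normalization, where 18.4% and 19.1% of all tested genes were called. GBSS1, SS1 and DPE1 were called under each of these settings.

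**Figure D2:**
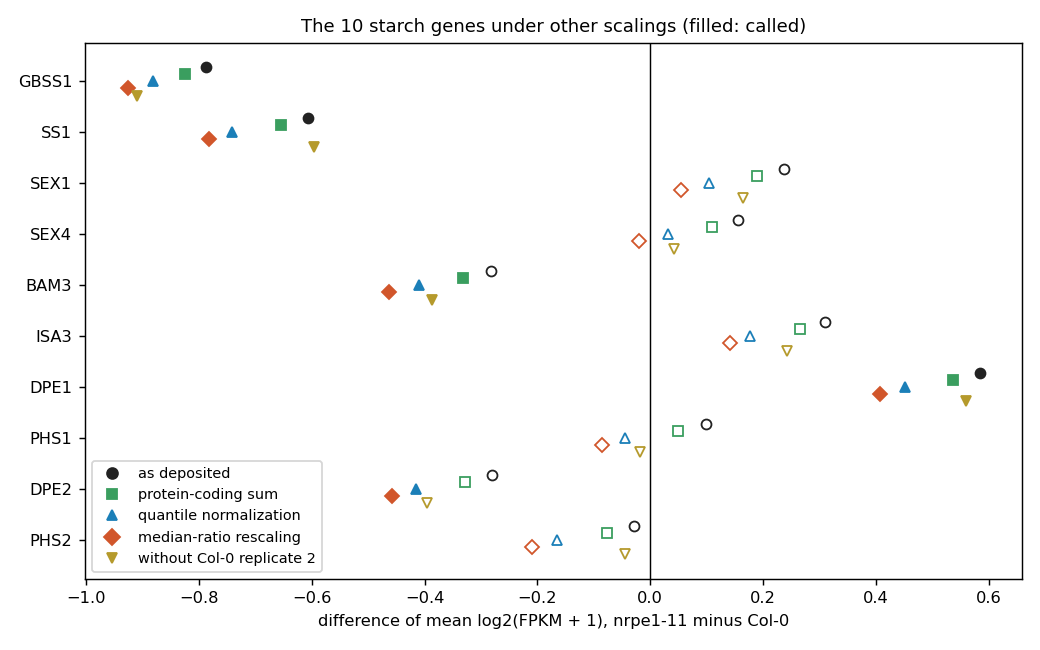
Difference of mean log2(FPKM + 1), nrpe1-11 minus Col-0 (horizontal axis), of each starch gene under 4 scalings and without Col-0 replicate 2, with filled symbols for called genes. GBSS1, SS1 and DPE1 are filled throughout, BAM3 in all but the deposited scale, and DPE2 under median-ratio rescaling and quantile normalization.

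No starch gene was called in the libraries labelled nrpd1-3 against wild type, which does not show that levels were equal. In limma, 0 of the 10 genes were called, beside 0% of all tested genes, and 0 of the 10 had an unadjusted p under 0.05, which 7.05% of all tested genes had. No other test was run across genes. The largest difference was that of DPE1, at 0.27 ± 0.136 (adjusted p = 0.681), and without replicate 3 of nrpd1-3, its high library, it was 0.10. SS1 differed by -0.16 ± 0.116 (adjusted p = 0.725). DPE1 and SS1 were the 2 genes whose groups did not overlap, the first higher and the second lower, beside 11.7% of all tested genes (10.1% higher and 1.56% lower). The remaining 8 differences ran from 0.03 for BAM3 to 0.20 for PHS1, and the sign of 7 of them, PHS1 excepted, depended on the scaling. The PHS1 difference was 0.080 without Col-0 replicate 2. In that fit GBSS1, SEX4, BAM3 and DPE2 were at -0.084, -0.039, -0.078 and -0.059.

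Set directly against nrpd1-3, nrpe1-11 had lower levels of both synthases. Of the 10 genes 2 were called, both lower, where 14.7% of all tested genes were called, 6.19% as higher and 8.52% as lower. GBSS1 differed by -0.83 ± 0.183 (limma adjusted p = 0.00587) and SS1 by -0.45 ± 0.116 (adjusted p = 0.0156). The SS1 call was lost without nrpd1-3 replicate 1 (-0.41, adjusted p = 0.0699) and without replicates 2 or 3 of nrpe1-11 (-0.39 and -0.44, adjusted p = 0.0767 and 0.0535). DPE1 differed by 0.32 ± 0.136 (adjusted p = 0.144), and by 0.48 without nrpd1-3 replicate 3 (adjusted p = 0.0206). BAM3 was at -0.31 (adjusted p = 0.088) and DPE2 at -0.34 (adjusted p = 0.141), and both were called under median-ratio rescaling (-0.37 and -0.39) and quantile normalization (-0.32 and -0.35). BAM3 was also called without Col-0 replicate 2, whose spread enters the shared error (-0.31, adjusted p = 0.0333).

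**Figure D3:**
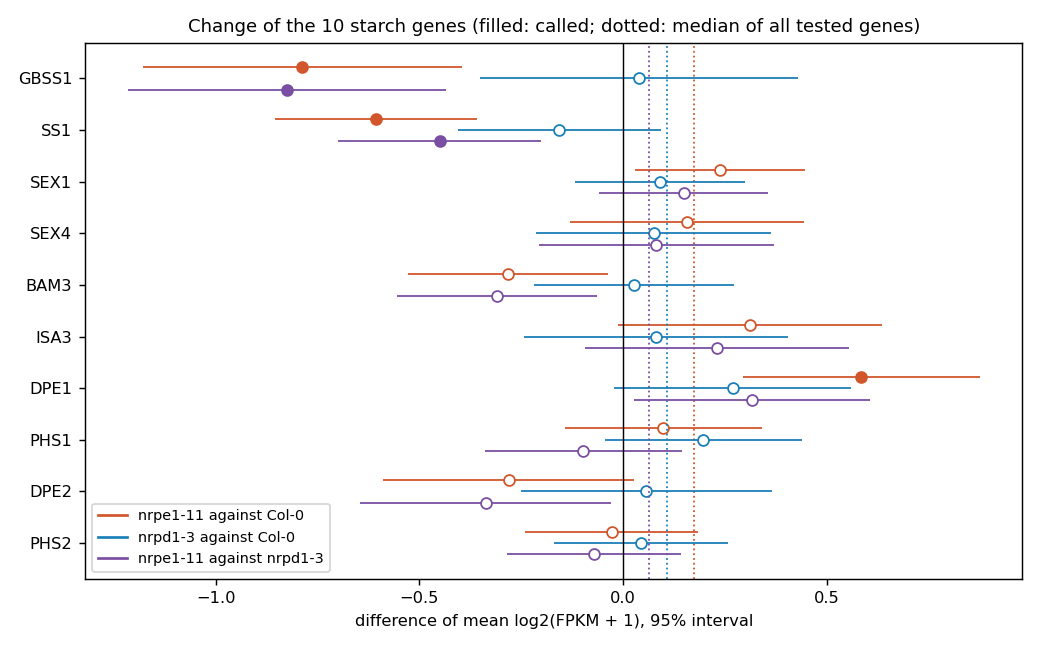
Difference of mean log2(FPKM + 1) with its 95% interval (horizontal axis) for the 10 starch genes in the 3 comparisons, filled where called, with dotted lines at the median of all tested genes. GBSS1 and SS1 are called lower in nrpe1-11 against both other genotypes, and DPE1 higher against Col-0.

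The summed level of the 10 genes overlapped between Col-0 and nrpe1-11. The sum was 212, 179 and 212 FPKM in Col-0, 218, 200 and 224 in nrpd1-3 and 204, 203 and 204 in nrpe1-11. The nrpe1-11 sums lay inside the Col-0 range only through Col-0 replicate 2, and were below those of Col-0 replicates 1 and 3. Shares of this sum do not depend on how a library as a whole is scaled. SEX1 took 16.5 to 16.8% of it in Col-0 and 19.0 to 19.8% in nrpe1-11, and BAM3 took 12.3 to 13.1% and 9.80 to 10.7%. The share of DPE1 was 6.58 ± 0.440% in Col-0 and 9.91 ± 0.158% in nrpe1-11, and that of SS1 was 7.87 ± 0.904% and 4.90 ± 0.457%. Shares overlapped between these groups for SEX4, PHS1 and PHS2 and for no other gene. The shares are tied to one another, because a rise in any of them lowers the rest. They have no counterpart over all tested genes, of which 39.4% did not overlap as FPKM in this comparison. These shares were not tested.

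The ratio of plastid DPE1, which acts on short glucans, to cytosolic DPE2, which acts on exported maltose, was 0.650, 0.818 and 0.693 in Col-0. It was 0.666, 0.918 and 0.965 in nrpd1-3 and 1.19, 1.51 and 1.39 in nrpe1-11. DPE2 was the more abundant RNA in all 6 libraries of Col-0 and nrpd1-3, and DPE1 in all 3 of nrpe1-11. The other plastid and cytosolic pair, PHS1 over PHS2, overlapped between genotypes, at 1.64 to 2.12 in Col-0 and 1.96 to 2.15 in nrpe1-11.

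**Figure D4:**
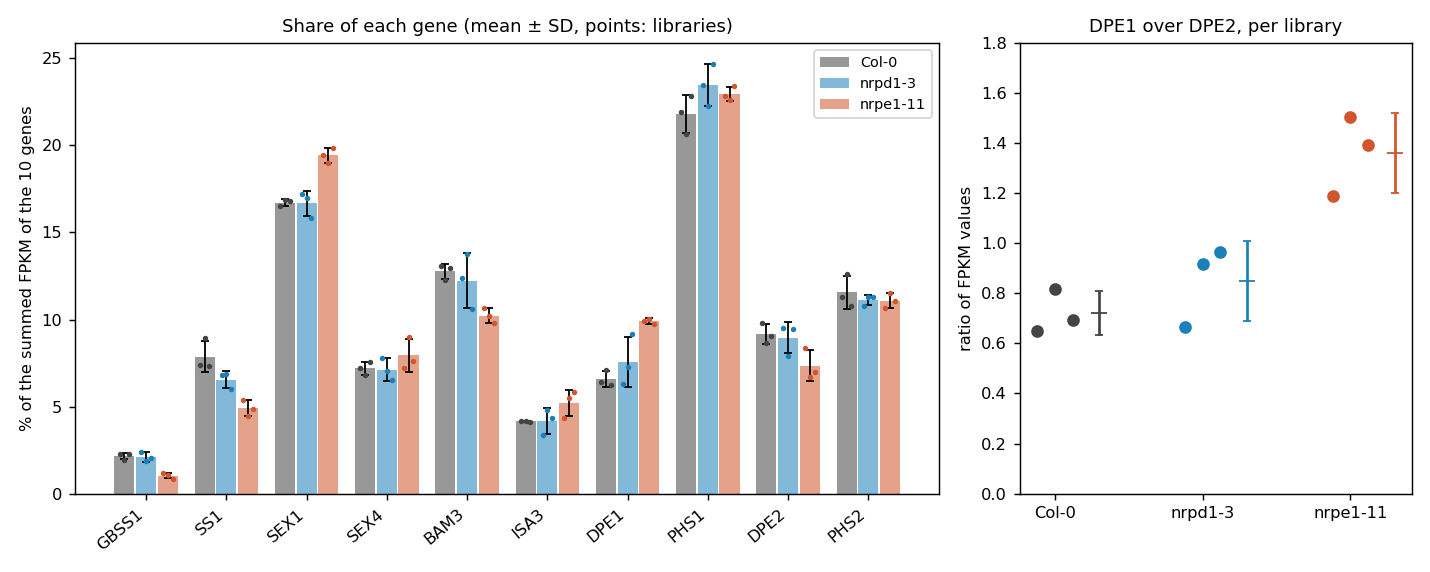
Left, the share of each starch gene in the summed FPKM of the 10 genes (vertical axis, percent, bars for the mean, error bars for the SD, points for libraries). Right, the ratio of DPE1 to DPE2 per library, which is 0.650 to 0.818 in Col-0 and 1.19 to 1.51 in nrpe1-11.

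Other genes of the pathway were taken from a list of 44 genes, of which 41 were tested. In nrpe1-11 against Col-0, 11 were called in limma, 4 higher and 7 lower, a share of 26.8% beside 21.7% of all tested genes. The lower genes include BAM6 and QQS, which reached 1 FPKM only in Col-0 and nrpd1-3 libraries. The median difference of the 41 genes was 0.00, against 0.17 for all tested genes. Median-ratio rescaling gave 1 higher and 12 lower, quantile normalization 2 and 11, and the protein-coding sum 4 and 9. Leaving out Col-0 replicate 2 gave 1 higher and 9 lower. In this order the fits called 31.7%, 31.7%, 31.7% and 24.4% of these genes, beside 18.4%, 19.1%, 22.7% and 16.9% of all tested genes. Of all genes called, 35.3%, 46.7%, 60.8% and 53.3% were higher in these fits. Without Col-0 replicate 3, 7 were called (17.1%, beside 18.7% of all tested genes). Without nrpe1-11 replicate 1, 7 were called (17.1%, beside 15.6%). In the libraries labelled nrpd1-3, 0 of the 41 were called and 1 had an unadjusted p under 0.05, beside 0% and 7.05% of all tested genes.

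Of the genes before the synthases, APS1, APL1 and GPT2 were called lower and PGM1 and GPT1 higher, the last pair not under median-ratio rescaling. APS1 and APL1 encode a small and a large subunit of ADP-glucose pyrophosphorylase, which makes the ADP-glucose that synthases use. APS1 fell from 51.5, 43.1 and 47.1 FPKM in Col-0 to 31.9, 34.0 and 31.4 in nrpe1-11 (-0.53, adjusted p = 0.0015). APL1 fell from 77.7, 64.3 and 74.7 to 50.5, 51.8 and 50.2 (-0.49, adjusted p = 0.0021). Both groups were well apart, and the libraries labelled nrpd1-3 overlapped Col-0 for both genes. PGM1, the plastid phosphoglucomutase before this step, was called higher (0.35, adjusted p = 0.0473), a call lost in 12 of 17 alternatives, 7 of them with a library left out. Without Col-0 replicate 2 the PGM1 difference was 0.25 (limma adjusted p = 0.150). The glucose 6-phosphate translocators of plastids went opposite ways. GPT2 was at 6.45, 4.77 and 6.12 FPKM in Col-0 and at 0.790, 1.04 and 1.27 in nrpe1-11 (-1.73, adjusted p = 3.79e-05). GPT1 was at 8.85, 7.26 and 10.5 against 13.3, 11.1 and 14.7 (0.51, adjusted p = 0.0230), and was no longer called in 5 of 17 alternatives, among them median-ratio rescaling (0.34, adjusted p = 0.0683) and the fits without Col-0 replicate 2 (0.0808) and without replicates 1 or 3 of nrpe1-11 (0.0673 and 0.102).

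Among the relatives of SS1, none was called in nrpe1-11 against Col-0 on the deposited scale. SS2 differed by -0.26 (adjusted p = 0.236), and was called at -0.41 under median-ratio rescaling (adjusted p = 0.0483). SS3 differed by -0.17 (0.410) and SS4 by 0.02 (0.919), and SS4 turned negative under 3 scalings and without Col-0 replicate 2 (-0.088). Against nrpd1-3, SS2 was called lower (-0.47, adjusted p = 0.0444), a call lost in 8 of 17 alternatives. The branching enzyme SBE2.2 was lower against nrpd1-3 (-0.57, adjusted p = 0.00649) and against Col-0 (-0.45, adjusted p = 0.0225), where it was named after its value was seen. The second of these calls was lost when Col-0 replicate 1 was left out (adjusted p = 0.0719), and likewise for replicates 1 and 2 of nrpe1-11 (0.0859 and 0.0628). ISA1, a debranching enzyme of synthesis that works with ISA2, was called higher (0.39, limma adjusted p = 0.0334). That call was lost in 8 of 17 alternatives, 6 of them with a library left out, including Col-0 replicate 2 (0.37, adjusted p = 0.0679). ISA2 was at -0.31 (adjusted p = 0.179) and was called under median-ratio rescaling (-0.46, adjusted p = 0.0281) and quantile normalization (-0.42, adjusted p = 0.0400). MFP1, a thylakoid protein involved in where granules start, fell (-0.52, adjusted p = 0.0136). Its call, not its direction, was lost without Col-0 replicate 3 (-0.45, adjusted p = 0.0545) and with no expression filter (-0.52, adjusted p = 0.0562). SS2, SS3, ISA1, MFP1 and APL1 overlap loci on the opposite strand, and the strandedness of the libraries is not given in the sources used here.

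On the breakdown side, PWD, the dikinase that acts after SEX1, was higher in nrpe1-11. Its level was 21.6, 21.3 and 22.3 FPKM in Col-0, 22.0, 24.0 and 28.3 in nrpd1-3 and 35.6, 32.5 and 37.0 in nrpe1-11. All 3 nrpe1-11 libraries were above the other 6, and PWD was called against Col-0 (0.66 ± 0.110, limma adjusted p = 0.000602) and against nrpd1-3 (0.49, adjusted p = 0.00646). The ratio of SEX1 to PWD was 1.41 to 1.62 in Col-0 and 1.09 to 1.19 in nrpe1-11. The phosphatase-related LSF1 was at -0.34 (adjusted p = 0.197) and overlaps AT3G01500, a far more abundant gene, on the same strand. Among the relatives of BAM3, BAM1 was at -0.14 (adjusted p = 0.439) and BAM4, a beta-amylase without catalytic activity, at 0.09 (adjusted p = 0.684), while BAM6 was called lower (adjusted p = 0.0109). BAM6 was low throughout, at 0.877, 0.964 and 1.64 FPKM in wild type and at 0.343, 0 and 0 in nrpe1-11. It reached 1 FPKM only in Col-0 replicate 3 and the 3 nrpd1-3 libraries, and so was tested through those alone. It overlaps AT2G32280 on the opposite strand, and was not called without Col-0 replicate 3 (adjusted p = 0.0506). QQS, a small gene of Arabidopsis whose silencing raises leaf starch, was listed at 0 in all nrpe1-11 libraries. It was at 4.77, 1.38 and 3.39 FPKM in Col-0 and at 3.41, 1.27 and 1.10 in nrpd1-3, and was tested through these groups alone.

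Against nrpd1-3, 9 of the 41 other starch genes were called in limma, PWD higher and 8 lower, a share of 22.0% beside 14.7% of all tested genes. The lower genes were GPT2, QQS, BAM6, MFP1, SBE2.2, APL1, SS2 and APS1, the last named for this comparison after its value was seen. Of these, QQS and BAM6 were tested only because of their Col-0 and nrpd1-3 levels. The QQS call was lost with no expression filter (-1.46, limma adjusted p = 0.0524).

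**Figure D5:**
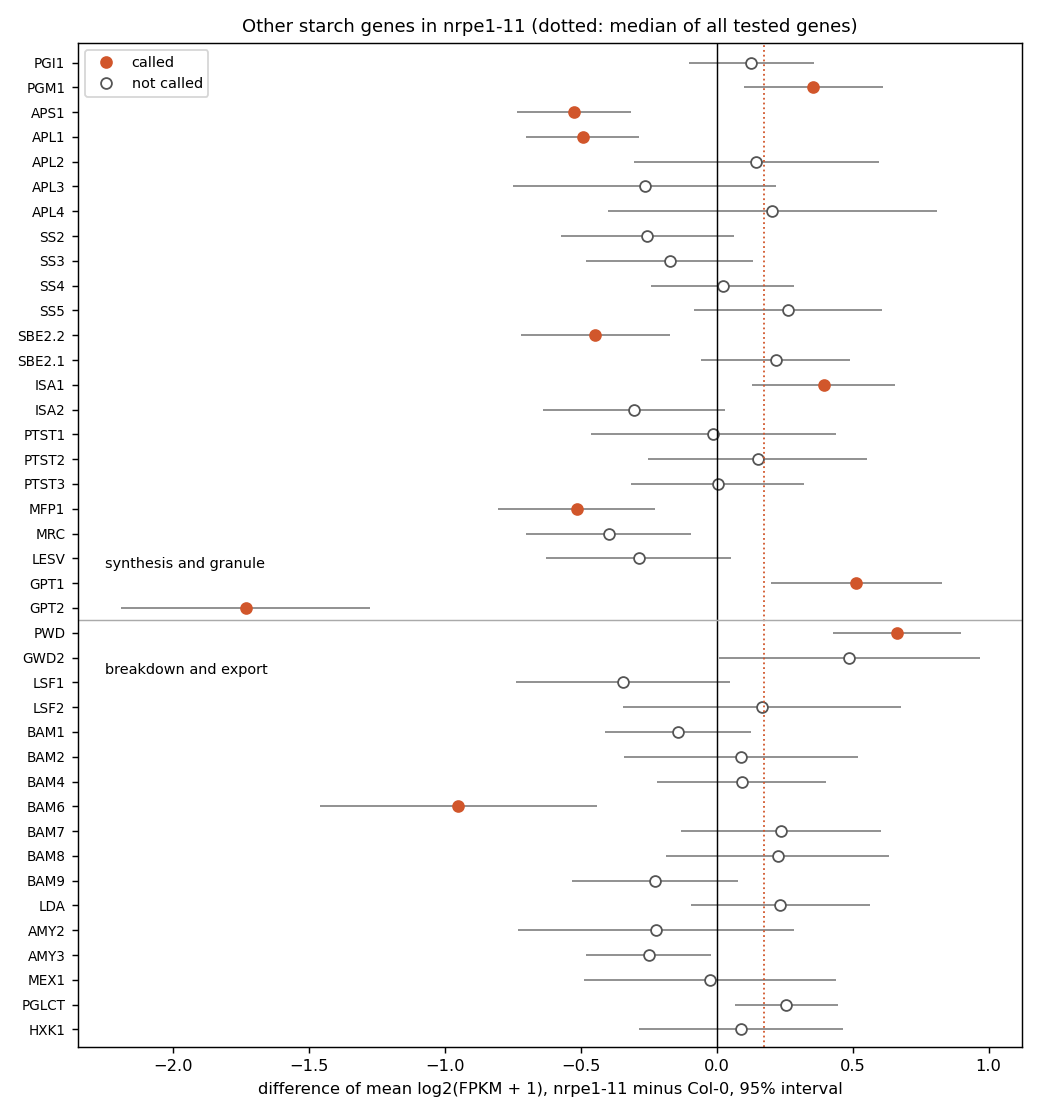
Difference of mean log2(FPKM + 1), nrpe1-11 minus Col-0, with its 95% interval (horizontal axis) for 40 of the 41 tested other starch genes, filled where called, with a dotted line at the median of all tested genes and QQS left out because it is listed at 0 in nrpe1-11. GPT2 at -1.73 and PWD at 0.66 lie farthest out on either side.

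Markers of leaf tissue and of the clock also differed in nrpe1-11 against Col-0. In that comparison 21.7% of all tested genes were called, 14.2% as higher and 7.54% as lower. All 5 mesophyll genes (RBCS1A, RCA, LHCB3, LHCA1 and GLDP1) were called lower in nrpe1-11 against Col-0, their summed level being 5911 to 6637 FPKM in Col-0, 6025 to 6314 in nrpd1-3 and 3564 to 4021 in nrpe1-11. Of 5 root genes (SCR, SHR, WER, CASP1 and TIP2;3) 2 were called higher, with sums of 18.4 to 20.5 FPKM in Col-0, 18.8 to 26.4 in nrpd1-3 and 29.6 to 33.7 in nrpe1-11. Of 3 seed genes CRA1 and OLEO1 were at 0 in every library and SESA1 reached 0.293 FPKM in 1 nrpd1-3 library, and the sums of 3 flower genes were at most 1.56 FPKM. In bulk seedlings fewer cells of a type and less RNA per cell cannot be told apart.

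All 10 clock genes of the marker list were called in nrpe1-11 against Col-0, 3 higher and 7 lower, and 0 of 10 in nrpd1-3. The shares over all tested genes were 21.7% and 0%. CCA1 (-2.31), PRR9 (-1.82), RVE8 (-1.52), LHY (-1.16), PRR7 (-0.82), PRR5 (-0.72) and GI (-0.36) were lower. The GI call was lost in 8 of 17 alternatives, including the fit without Col-0 replicate 2 (-0.33, limma adjusted p = 0.0873). ELF4 (0.92), TOC1 (0.79) and LUX (0.71) were higher. RVE8, PRR7, PRR5 and LUX were named after their values were seen. The summed level of the 10 clock genes overlapped, at 135 to 159 FPKM in Col-0 and 153 to 173 in nrpe1-11. The part of the leaf, root and clock genes in the differences of starch genes was not tested, and genotype and hour of collection cannot be told apart here if they differed together.

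Over all 9 libraries the genes most like SS1 in log2(FPKM + 1), among genes with a mean of 5 FPKM or more, were RD22, a BURP domain protein (Pearson r = 0.980), DiT1, a plastid dicarboxylate transporter (0.979), and EXPA10, an expansin (0.966). For GBSS1 they were AT5G36790 (r = 0.990), HEME1, a uroporphyrinogen decarboxylase (0.989), and AT2G41250 (0.989). At r of 0.95 or more there were 22 genes for SS1 and 173 for GBSS1. These are descriptions, because the 9 points share 3 genotypes and differ mainly between nrpe1-11 and the rest.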

How the data were processed

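Deposited values were FPKM per gene, computed by the authors. Per the submitters' processing notes the tools included StringTie 2.1.7, HISAT2 2.2.1 and fastp 0.23.2, with TAIR10 as the build, in no stated order. Whether reads were stranded is not given in the sources used here. The members and gene lists were chosen with earlier results of these data known. The table had 37929 lines for 37898 genes, since AT1G58520 filled 32 lines, and 0 columns of other samples. Identifiers were matched to the RefSeq TAIR10.1 annotation, which supplied coordinates and promoters. From the list of other starch genes 1 of 45 codes was dropped because its annotated product did not match its name.

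Genes reaching an FPKM of 1 in 3 libraries were fitted as log2(FPKM + 1) with a pseudocount of 1 in limma 3.58.1 (R 4.3.3), with 1 mean per genotype over 9 libraries and an intensity trend (14.8 degrees of freedom). Tests were two-sided and called at an adjusted p under 0.05. The fit was tested on simulated data. All 10 members were named, with up to 6 called other starch genes per direction and comparison by size of change, listed paralogs, 6 clock genes and the 3 genes most alike. The rest of the clock list was named after its values were seen. Depth came from the spacing of low FPKM values, of which 71.0% to 75.7% lay within 0.1 of a step. Alternatives were other pseudocounts, filters and scalings, a replicate block, 6-library fits and each library left out. Python 3.11.15 was used for tables and figures.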

Additional observations from a re-analysis of the deposited data

How the results depend on the processing

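Of 507 repeated fold changes of the 10 genes, 459 kept their direction and side of the threshold, 32 reversed, 13 became called and 3 were lost. Called members in nrpe1-11 against Col-0 numbered 5 under median-ratio rescaling and 5 under quantile normalization, beside 18.4% and 19.1% of all tested genes. In nrpe1-11 against nrpd1-3 they numbered 4 under both, beside 16.9% and 18.1% of all genes. They numbered 1 with a mean FPKM of at least 5 (21.3%), where GBSS1 is not tested, and 1 to 3 with a library left out (10.9% to 18.4%). Called other starch genes in nrpe1-11 against Col-0 numbered 7 to 12 with a library left out, beside 15.2% to 22.7% of all tested genes. Every reversed value was uncalled, and except for fewer samples the cause was not tested.

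Reversals in nrpe1-11 against Col-0 were SEX4 at -0.020 (median-ratio), PHS1 at -0.086 (median-ratio), -0.046 (quantile) and -0.018 to 0.17 (library left out), SS4 at -0.15, -0.11 and -0.026 (median-ratio, quantile, protein-coding sum) and -0.088 to 0.077, and BAM4 at -0.086, -0.046 and -0.082 to 0.19. For the libraries labelled nrpd1-3 against wild type, the values under median-ratio, quantile and, where it reversed, protein-coding sum were GBSS1 -0.064, -0.068 and -0.023, SEX1 -0.033 and -0.020, SEX4 -0.043 and -0.047, BAM3 -0.094, -0.086 and -0.046, ISA3 -0.031 and -0.037, DPE2 -0.063, -0.069 and -0.015, and PHS2 -0.078, -0.074 and -0.029. With a library left out GBSS1 ran from -0.084 to 0.15, SEX4 from -0.039 to 0.15, BAM3 from -0.078 to 0.089, DPE2 from -0.059 to 0.18 and PHS2 from -0.0013 to 0.079. SEX4 against nrpd1-3 ran from -0.0042 to 0.16.

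The replicate numbers were not taken to pair libraries, because the labels do not say what a replicate number shares. Residuals of same-numbered libraries correlated at -0.07 to 0.15, and those of differently numbered libraries at -0.12 to 0.07. With the replicate block 3, 0 and 3 members were called for nrpe1-11 and nrpd1-3 against wild type and for nrpe1-11 against nrpd1-3, the last adding DPE2 (-0.34, adjusted p = 0.0476), with 4428, 0 and 2996 of all genes and 13, 0 and 12 other starch genes. Low FPKM limits the precision of GBSS1, BAM6 and QQS.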
